A study of Mus musculus with 11 samples.

Results

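In 11 first-generation hybrid mice, 14 autosomal genes gave allelic reads almost only from the BL6 copy. They were chosen by their measured values: each had at least 100 allelic reads, and a BL6 share of those reads of at least 90%, in every mouse. An allelic read is a read that the authors could assign to the BL6 or the CAST parent, and the BL6 share is the percentage of a gene's allelic reads assigned to BL6. Symbols of predicted or unnamed genes and pseudogenes (Gm plus a digit, ending in Rik, containing -ps) were left out. The 14 genes were 0.12% of the 11697 autosomal genes that passed the read minimum and the symbol filter, and the tables listed 55401 genes in all. The members are Ubb, Mir682, Stmn1, Rprl3, Eps8l3, Rpl37rt, H2-D1, Ppp1ccb, H2-K1, Fam205c, Pttg1, Pon2, Tmc3 and Spink10, in falling order of mean TPM, the authors' expression value scaled to transcript length and library size. Because BL6 shares chose the genes, their height against an even split is given below as a description, with no test.

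The RNA came from hippocampus of female F1 mice bred from BL6, the common laboratory strain, and CAST, a strain derived from wild Mus musculus castaneus. Each library was a poly(A)-selected, directional RNA library of 1 mouse. The old group, aged 101 to 104 weeks, held 3 mice with a BL6 mother (old replicates 1, 2 and 5) and 2 with a CAST mother (old replicates 3 and 4). The young group, aged 8 to 9 weeks, held 3 mice with a BL6 mother (young replicates 3, 4 and 6) and 3 with a CAST mother (young replicates 1, 2 and 5). The labels name no drug and no genetic change, and all mice were hybrids of the same 2 strains. Total counts ran from 111.1 M to 214.8 M per mouse. Between 35.1% and 36.4% of them were assigned to an allele, and BL6 took 50.4% to 51.1% of the assigned reads. Summed levels of 10 striatal marker genes ran from 187 to 3403 CPM (counts scaled to library size), the highest being in young replicate 2, young replicate 6 and old replicate 3, called the striatum-rich libraries here. Marker genes of dentate granule cells and CA1 pyramidal cells, the defining cells of the hippocampus, were detected in both age groups, and no marker gene on any list was at 0.

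In an F1 hybrid, every cell holds 1 BL6 and 1 CAST copy of each autosomal gene that both strains carry, and both copies share the same nucleus and regulators. Reads can be assigned to a parent only where they cross a base that differs between the strains and where they can be placed at the gene. Among all 11697 measured genes, 90.3% had a mean BL6 share between 40% and 60%. The 14 genes lay at the far end of that distribution. At the opposite end, 5 genes (0.0427%) had a BL6 share of at most 10% in every mouse, Hjurp, Hist1h4m, Hist1h2al and Myo3a among them.

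Near-identical copies recur among the 14 genes. Ppp1ccb and Rpl37rt are annotated as transcribed processed pseudogenes, that is, copies of a spliced messenger RNA inserted elsewhere in the genome. Mir682 is a microRNA gene whose hairpin lies wholly inside such a copy, the processed pseudogene Gm4149, on the same strand, and matches the ribosomal protein gene Rpl37a. Stmn1 has a close relative in the processed pseudogene Gm11223. The following stretches of GENCODE M21 transcripts (GRCm38, sense strand) are shown because they let the closeness of gene and copy be seen. Capitals mark the base that differs between the sequences of a pair. The last 99 coding bases of Rpl37 that align to Rpl37rt hold the only mismatch in 291 aligned coding bases.
Rpl37: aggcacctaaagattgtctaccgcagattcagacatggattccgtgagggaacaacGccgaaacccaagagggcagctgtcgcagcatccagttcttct
Rpl37rt: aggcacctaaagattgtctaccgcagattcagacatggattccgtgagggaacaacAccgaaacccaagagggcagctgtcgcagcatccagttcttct
The 96 bases of the Mir682 hairpin align to coding bases 151 to 246 of Rpl37a with 1 mismatch.
Rpl37a: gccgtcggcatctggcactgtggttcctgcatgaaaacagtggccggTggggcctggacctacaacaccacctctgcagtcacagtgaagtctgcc
Mir682: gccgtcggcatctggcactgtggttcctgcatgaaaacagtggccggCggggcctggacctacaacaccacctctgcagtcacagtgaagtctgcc
A 99-base stretch of Stmn1, coding bases 225 to 323, holds the only mismatch to Gm11223 in 447 aligned coding bases.
Stmn1: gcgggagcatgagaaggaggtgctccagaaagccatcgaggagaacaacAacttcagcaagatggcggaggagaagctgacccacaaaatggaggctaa
Gm11223: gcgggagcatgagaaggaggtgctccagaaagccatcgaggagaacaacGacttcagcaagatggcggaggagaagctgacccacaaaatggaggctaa

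The mature product of Mir682 lies near the end of that hairpin, and the RefSeq sequence (GRCm38.p6, chr13:75645119-75645139, + strand) is given with its seed, bases 2 to 8, in capitals.
mmu-miR-682: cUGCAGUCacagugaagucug
The libraries were made from poly(A)-selected RNA with 100-base paired reads, so the counts of Mir682 are not taken here as a level of the mature microRNA. The same letters stand in Rpl37a, as the alignment shows, and which gene these reads came from was not tested.

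**Figure D1:**
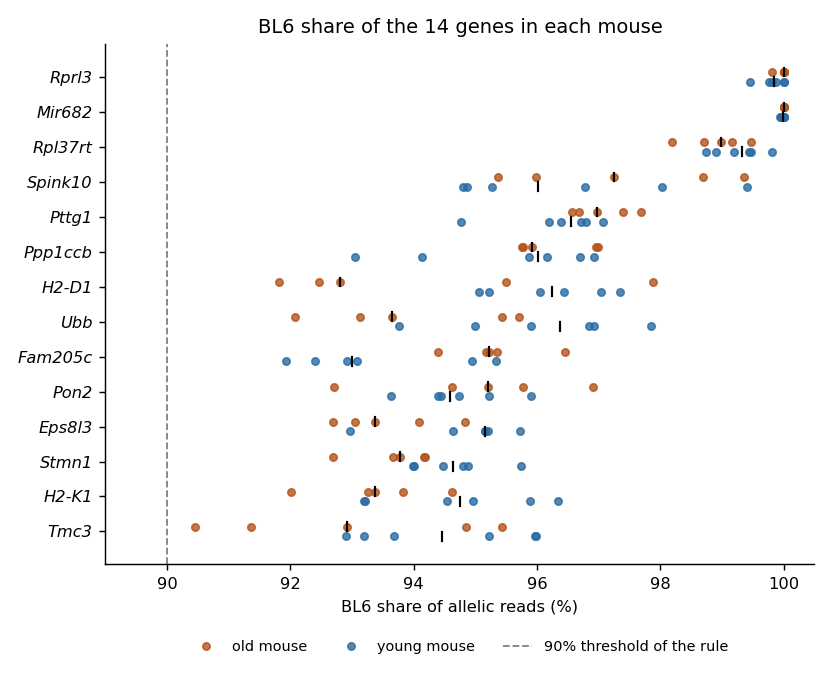
BL6 share of allelic reads in percent (horizontal axis) for the 14 genes (vertical axis), 1 point per mouse, with a black tick at the median of each age group and a dashed line at the 90% threshold that chose the genes. Rprl3, Mir682 and Rpl37rt stayed at 98.2% or higher in every mouse, and Tmc3 came nearest to the threshold, at 90.4%.

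The shares had 2 ranges. Rpl37rt, Mir682 and Rprl3 stayed above 98% in every mouse, and the other members ranged from 90.4% to 99.4%. Tmc3 (lowest mouse 90.4%), H2-D1 (91.8%), Fam205c (91.9%), H2-K1 (92.0%) and Ubb (92.1%) lay just inside the threshold. Just outside it, with their lowest mouse, lay Myoc (89.6%), Krt20 (88.9%), Ovgp1 (88.9%), Gucy2g (85.5%) and Kcng4 (85.02%), all of which had medians over mice above 91%. The lists therefore ran into each other with no gap at 90%. The threshold itself set the number: 34 genes passed at 80% and 3 at 95%.

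The plot of shares by mouse shows Mir682 and Rprl3 at the right edge. Mir682 had 0 CAST reads in 8 of 11 mice, which allows a CAST share of up to 0.107% to 0.248% at the depths of those mice (3 reads of the total, counting error only). Rprl3 had 0 CAST reads in 6 mice, allowing up to 0.222% to 0.644%. The 95% Wilson interval of a single mouse's share was narrowest for Mir682, 0.137 percentage points, and widest for Spink10, 7.13 points. Shares of Spink10 in single mice were thus the least precise.

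The retrocopies gave their BL6-only reads beside parent genes that were read from both alleles. Rpl37rt (ENSMUSG00000072692.7, chr5:115102923-115110268, - strand) is a copy of Rpl37, which encodes a protein of the large ribosomal subunit. Its BL6 shares in old replicates 1 to 5 were 99.2%, 98.2%, 98.98%, 98.7% and 99.5%, and in young mice the lowest, median and highest were 98.7%, 99.3% and 99.8%. Rpl37 itself, at 60.3 TPM against 14.98 TPM for Rpl37rt, had a BL6 share of 62.9% to 66.8% with a median of 65.0%. With the reads of both genes added, the median was 68.6%, so the sum remained above an even split. In total counts, Rpl37rt stood at 6.96, 4.97, 4.73, 5.18 and 6.50 CPM in old replicates 1 to 5 and at 4.45, 5.25 and 5.80 CPM (lowest, median, highest) in young mice, and the age groups overlapped.

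Ppp1ccb (ENSMUSG00000100153.2, chr7:119739926-119742226, + strand) is a copy of Ppp1cc, the gene of a catalytic subunit of protein phosphatase 1. A single match of 99.8% identity covered 99.9% of its transcript. BL6 shares were 97.0%, 95.9%, 95.8%, 97.0% and 95.8% in old replicates 1 to 5, and 93.0%, 96.0% and 96.9% (lowest, median, highest) in young mice, and these ranges overlapped. Ppp1cc, at 64.2 TPM against 14.4 TPM for the copy, had a median share of 58.0%, but the authors' assignment gave an allele to only 3.07% of its counts, against 62.3% of those of Ppp1ccb. The 2 genes together had a median share of 83.8%. Total counts of Ppp1ccb were 12.1, 11.1, 10.0, 10.5 and 11.2 CPM in old mice and 7.35, 9.76 and 11.1 CPM (lowest, median, highest) in young mice.

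Mir682 (ENSMUSG00000076236.1, chr13:75645046-75645141, + strand) and the surrounding Gm4149 held nearly the same counts, means of 12.7 CPM each. The hairpin is only a part of the pseudogene, and why the counts were so nearly equal was not tested. The BL6 share of Mir682 was 100% in every old mouse, and 99.9%, 99.98% and 100% (lowest, median, highest) in young mice. Rpl37a, the coding relative of Gm4149, which encodes another protein of the large ribosomal subunit, had the opposite lean, with BL6 shares of 28.8% to 36.6% and a median of 30.6%. Adding the reads of Gm4149 and Rpl37a brought the share to 44.4% to 46.5%, median 45.9%. That sum was nearer to an even split in every mouse than either gene alone. The hairpin matched 13 genes apart from Gm4149, however, and of these only Rpl37a was added. Among the others, Gm4613, at 9.39 TPM, had BL6 shares of 99.1% to 100%, while Gm20302, at 1.37 TPM, had a median of 57.9%. Mir682 counts were 18.1, 10.3, 8.46, 9.62 and 15.4 CPM in old replicates 1 to 5, and 10.5, 12.8 and 17.3 CPM (lowest, median, highest) in young mice, so the groups overlapped.

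**Figure D2:**
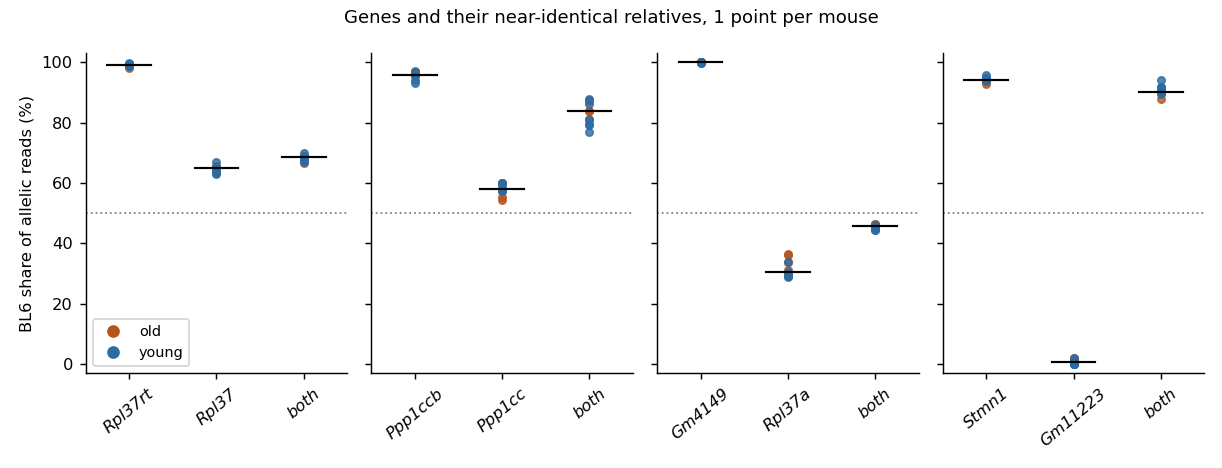
BL6 share of allelic reads in percent for 4 genes, for a near-identical relative of each, and for the reads of both added together, 1 point per mouse coloured by age, with a line at the median and a dotted line at 50%. Adding Rpl37a to Gm4149, the pseudogene that holds Mir682, moved the median from 100% to 45.9%, while adding Gm11223 to Stmn1 moved it from 94.2% to 90.2%.

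Stmn1 and Ubb were the most abundant protein-coding members, and in both a small part of the counts carried the allelic signal. Stmn1 (ENSMUSG00000028832.11, chr4:134468320-134473843, + strand) encodes stathmin 1, which binds tubulin and destabilises microtubules. Its BL6 shares were 94.2%, 93.8%, 93.7%, 92.7% and 94.2% in old replicates 1 to 5, and 94.0%, 94.6% and 95.7% (lowest, median, highest) in young mice, on the 16.3% of its counts that had an allele. The pseudogene Gm11223, at 11.0 TPM against 167 TPM for Stmn1, was read almost only from CAST, with BL6 shares of 0% to 2.03% and a median of 0.629%. It drew a mean of 150 CAST reads per mouse, and Stmn1 drew 217 CAST and 3623 BL6 reads, so the 2 genes together still had a median share of 90.2%. Stmn1 counts were 126, 85.7, 116, 115 and 199 CPM in old replicates 1 to 5, and 142, 167 and 244 CPM (lowest, median, highest) in young mice. Old replicate 5 was the highest of its group, and the age groups overlapped.

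Ubb (ENSMUSG00000019505.7, chr11:62551171-62553213, + strand) encodes polyubiquitin, tandem copies of the protein tag that marks proteins for the proteasome. It had the highest level of the 14 genes, a mean of 357 TPM. Only 9.57% of its counts had an allele, which put it at percentile 3.27 of measured genes. BL6 shares were 95.4%, 93.1%, 93.6%, 92.1% and 95.7% in old replicates 1 to 5, and 93.8%, 96.4% and 97.8% (lowest, median, highest) in young mice. The relatives Gm1821, a processed pseudogene at 54.2 TPM, and Gm8797, at 1.05 TPM, each matched 77.8% of the Ubb transcript and had 0 allelic reads in every mouse. Ubb counts were 319.9, 303, 283, 327 and 357 CPM in old replicates 1 to 5, and 218, 257 and 322 CPM (lowest, median, highest) in young mice.

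Rprl3 (ENSMUSG00000088025.1, chr8:3803069-3803358, - strand), annotated as a ribozyme, is named for its likeness to the RNA component of ribonuclease P, which trims transfer RNA precursors. Its BL6 share was 99.8% in old replicate 1 and 100% in the other old mice, and 99.5%, 99.8% and 100% (lowest, median, highest) in young mice. No other gene matched its transcript in an alignment of at least 50 bases at 95% identity, and 99.8% of its counts had an allele. Counts were 3.39, 4.21, 8.78, 3.75 and 4.69 CPM in old replicates 1 to 5, and 2.80, 3.33 and 8.65 CPM (lowest, median, highest) in young mice. In each age group 1 mouse stood well above the rest.

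The MHC class I genes H2-K1 and H2-D1 were the only pair of members within 2 Mb of each other, 1.27 Mb apart on chromosome 17. They encode the classical class I heavy chains, which present peptides from inside the cell to cytotoxic T cells and are among the most variable genes between mouse strains. H2-D1 (ENSMUSG00000073411.12, chr17:35262730-35267499, + strand) had BL6 shares of 97.9%, 92.5%, 92.8%, 91.8% and 95.5% in old replicates 1 to 5, and 95.1%, 96.2% and 97.3% (lowest, median, highest) in young mice. H2-K1 (ENSMUSG00000061232.16, chr17:33996017-34000347, - strand) had 93.4%, 93.3%, 93.8%, 94.6% and 92.0% in old mice, and 93.2%, 94.7% and 96.3% in young mice. Both genes were read from CAST in every mouse at a low level, and the shares of the age groups overlapped for both.

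Other genes of the MHC did not share this pattern. Of 5 MHC genes among the measured genes, these 2 were members. Of the other measured ones, the nonclassical class I gene H2-T24 leaned to BL6, with a median share of 74.8%. The class II loading gene H2-DMa had 50.9%, and H2-Ke6, a steroid dehydrogenase gene in the same region, had 51.3%. With lower minimum depth (at least 20 allelic reads in every mouse), the class I pseudogene H2-K2 had a median of 74.5%. The nonclassical class I gene H2-T22 had 70.0%, and H2-Q4 had 64.5%. On the other side of an even split lay H2-M3 (37.8%), H2-Ab1 (38.1%) and H2-DMb1 (39.1%). Among the 12 H2- genes read at that depth, median shares ran from 37.8% to 95.5%, with H2-K1 and H2-D1 at the top.

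The promoter windows of H2-K1 and H2-D1 are shown because the total counts of both genes stood higher in every old mouse than in any young mouse. How many of all genes separated the ages in this way was not counted. The sequences are from RefSeq (GRCm38.p6), 250 bases before to 50 after 1 annotated start of each gene. These starts are not like points. That of H2-K1 is the edge of the gene's GENCODE span, while the whole H2-D1 window lies inside the span of that gene. They were searched on both strands for GGGATTCCC, a form of the NF-kB motif known from class I promoters, for CCAAT, the box bound by factor NF-Y, and for GAANNGAAA, a relaxed form of the interferon-response element. The letters of the motifs were settled after these windows had been seen. Capitals mark the matches, and no match overlaps another.
H2-K1 (chr17:34000298-34000597, - strand): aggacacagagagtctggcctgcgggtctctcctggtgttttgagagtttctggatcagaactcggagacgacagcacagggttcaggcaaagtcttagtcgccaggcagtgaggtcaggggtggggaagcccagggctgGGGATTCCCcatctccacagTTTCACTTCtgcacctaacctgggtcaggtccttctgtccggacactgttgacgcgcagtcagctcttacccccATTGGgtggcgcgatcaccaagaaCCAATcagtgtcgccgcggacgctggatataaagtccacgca
H2-D1 (chr17:35262844-35263143, + strand): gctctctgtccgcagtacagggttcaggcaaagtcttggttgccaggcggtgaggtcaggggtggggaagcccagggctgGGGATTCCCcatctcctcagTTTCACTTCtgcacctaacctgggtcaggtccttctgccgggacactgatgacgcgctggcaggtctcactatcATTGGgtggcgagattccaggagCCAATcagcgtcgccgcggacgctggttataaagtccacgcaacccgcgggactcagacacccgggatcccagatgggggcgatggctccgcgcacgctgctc
GGGATTCCC began 110 bases before the start of H2-K1 and 170 bases before that of H2-D1, and 116 of 32851 promoter windows (0.353%) held it. GAANNGAAA followed it in both genes, beginning 90 and 150 bases before the start, and 7.52% of all windows held a match. CCAAT occurred 2 times in each of these windows and at least once in 37.4% of all windows. The later of those in H2-K1 began after the annotated start used. Because the starts differ in kind, the distances of the 2 genes are not compared. These are the reference letters, which are those of BL6, and the CAST letters at these promoters were not analysed here.

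The remaining 6 members are protein-coding genes, and 5 of them had no alignment to another gene of at least 50 bases at 95% identity. The exception, Spink10, had matches over 0.947% of its transcript. Eps8l3 (ENSMUSG00000040600.9, chr3:107877229-107892900, + strand) belongs to the EPS8 family of adaptors that link growth factor signals to actin. BL6 shares were 93.0%, 92.7%, 93.4%, 94.8% and 94.1% in old replicates 1 to 5, and 93.0%, 95.2% and 95.7% (lowest, median, highest) in young mice. Eps8l3 overlaps 4933431E20Rik on the opposite strand, which had much the same shares, 92.9% to 95.3%, and a mean of 70.3 CPM. Whether the authors counted by strand is not given in the sources used here, so reads of the 2 genes cannot be told apart. Counts of Eps8l3 were 33.6, 27.5, 22.9, 29.4 and 31.8 CPM in old replicates 1 to 5 and 24.7, 27.1 and 37.7 CPM (lowest, median, highest) in young mice.

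Tmc3 (ENSMUSG00000038540.14, chr7:83584927-83625614, + strand), of the transmembrane channel-like family, was the member nearest to the threshold. Its BL6 shares were 95.4%, 91.4%, 90.4%, 92.9% and 94.8% in old mice, and 92.9%, 94.5% and 96.0% in young mice. Here too an antisense gene, Gm16638, overlaps the locus, with shares of 91.6% to 96.4%, and the 2 cannot be told apart. Tmc3 was at 0.916 TPM, percentile 1.21 of measured genes, but 84.98% of its counts had an allele. Counts ran from 3.74 to 4.75 CPM in old mice and from 3.26 to 5.21 CPM in young mice.

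Pttg1 (ENSMUSG00000020415.16, chr11:43420250-43426251, - strand) encodes securin, which holds the protease separase inactive until chromosomes part in mitosis. BL6 shares were 96.7%, 96.6%, 97.0%, 97.4% and 97.7% in old replicates 1 to 5, and 94.8%, 96.6% and 97.1% (lowest, median, highest) in young mice. Almost all counts of Pttg1 had an allele, 96.2%, and 92.9% of the total went to BL6. Counts were 7.27, 5.10, 5.63, 5.28 and 7.31 CPM in old mice, and 4.46, 5.72 and 6.14 CPM in young mice.

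Pon2 (ENSMUSG00000032667.17, chr6:5264147-5298455, - strand) encodes paraoxonase 2, an intracellular lactonase that limits oxidative stress. Its shares were 95.8%, 95.2%, 92.7%, 94.6% and 96.9% in old mice, and 93.6%, 94.6% and 95.9% in young mice. Counts were 15.2, 11.4, 9.90, 11.4 and 13.3 CPM in old replicates 1 to 5, and 9.43, 11.8 and 13.3 CPM (lowest, median, highest) in young mice. Pon2 neighbours the paraoxonase genes Pon1 and Pon3, and its own nearest measured genes had a median mean share of 46.0%.

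Fam205c (ENSMUSG00000050141.13, chr4:42868004-42874234, - strand) had BL6 shares of 95.4%, 96.5%, 94.4%, 95.2% and 95.2% in old mice, and 91.9%, 93.0% and 95.3% in young mice. Of the members, it had the lowest share in the young mice. Its counts were 5.22 to 7.65 CPM in old mice and 3.42 to 8.38 CPM in young mice. Spink10 (ENSMUSG00000044176.12, chromosome 18), of the Kazal-type serine protease inhibitor family, was the least abundant member at 0.496 TPM. BL6 shares were 98.7%, 99.4%, 96.0%, 95.4% and 97.2% in old mice, and 94.8%, 96.0% and 99.4% in young mice. Its counts ran from 1.64 to 2.71 CPM in old mice and from 1.53 to 2.45 CPM in young mice, on 148 to 341 allelic reads per mouse. Spink10 overlaps Gm36368, Spink7 and Spink13 on the opposite strand, with BL6 shares of 90.7%, 96.8% and 88.4% in the reads of all mice together, and reads of these genes cannot be told apart from its own.

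**Figure D3:**
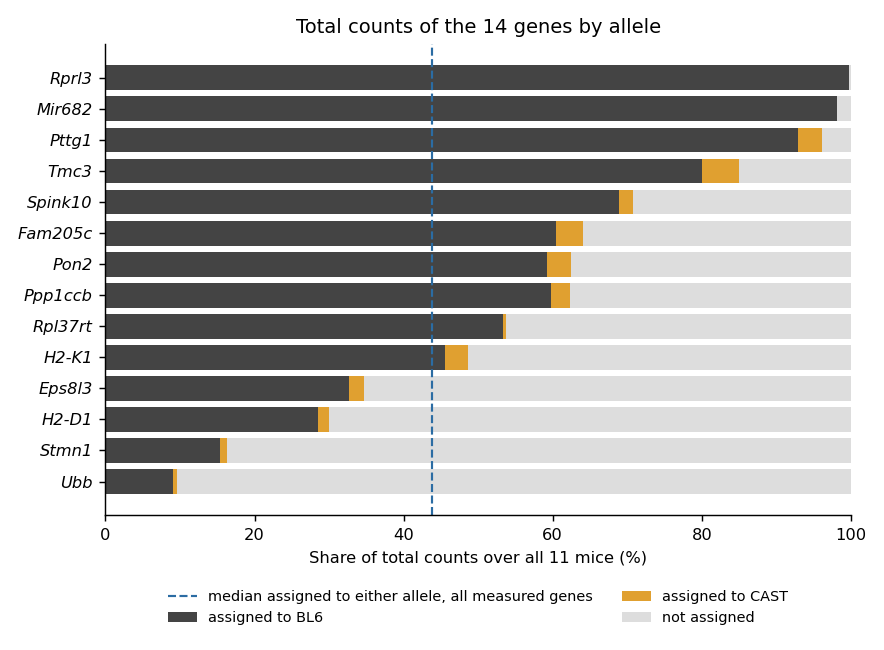
Percentage of the total counts of each of the 14 genes, added over all 11 mice, that was assigned to BL6 (dark), to CAST (orange) or to neither (light), with a dashed line at the median assigned fraction of all measured genes, 43.7%. The assigned fraction ran from 9.57% in Ubb to 99.8% in Rprl3, and the CAST part was at most 5.01% of the counts, in Tmc3.

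The 14 genes spanned most of the range of expression. Their median was 14.6 TPM, against 13.3 TPM for all measured genes, within a range of 0.496 to 357 TPM. The fraction of counts with an allele, drawn in the plot of counts by allele, had a median of 62.3%, against 43.7% for all measured genes, whose middle 50% lay between 29.7% and 57.6%. The part assigned to BL6 was 59.5% of total counts (median), against 21.9% for all measured genes, and the part assigned to CAST was 1.99% against 21.0%. The members ran over nearly the full range, from Ubb to Rprl3, so they had no common assigned fraction.

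Gene type differed more. Of the 14 genes, 10 (71.4%) were protein coding, against 97.9% of all measured genes, and 2 were transcribed processed pseudogenes. Before symbols were filtered, 41 genes passed, and 18 of the 27 left out were annotated as pseudogenes. The filter removes many pseudogene symbols by design. The share of pseudogenes among all genes it removed was not counted, so nothing is read from that number. At least 50% of the transcript matched another, non-overlapping gene at 95% identity in 4 of 14 members (Mir682, Ppp1ccb, Rpl37rt and Ubb), in 3 of the 5 CAST-only genes and in 2.103% of measured genes. Stmn1 followed at 42.5%, and H2-D1 at 24.3%, in short stretches matching 30 genes. The largest part of H2-D1, 13.3%, matched H2-Q7, with a longest match of 280 bases. The next, 7.04%, matched Cflar on chromosome 1 over 148 bases. The other 8 members, H2-K1 among them, were matched over less than 1% of their length at this cut. The cut applied to each alignment as a whole. Relatives aligned over a longer stretch at under 95% identity were therefore not counted, and a low value does not mean that a gene has no similar relative.

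By family, the 14 genes were scattered. None of 378 zinc finger genes, 73 cytosolic ribosomal protein genes or 26 histone genes was a member, though 2 of the histone genes were CAST-only. The MHC list gave 2 of 5, the Fam symbols 1 of 114 and the microRNA genes and hosts 1 of 46. The 12 genes outside the MHC had no other member within 2 Mb.

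The low CAST share did not extend to neighbouring genes in the windows examined. For each member, the 3 nearest measured genes on each side had a median mean share between 46.0% (Pon2) and 56.7% (H2-K1), with a middle value of 51.2%. The same statistic over all measured genes had a median of 50.9%, and its central 95% ran from 46.5% to 55.8%. The neighbours of H2-K1 lay above that range and those of Pon2 below it. The Pon2 value was set by Sgce and Peg10, known imprinted genes, whose shares ran from near 0% to near 100% between mice. The single neighbours farthest from an even split leaned to CAST. Gstm7, a glutathione S-transferase gene near Eps8l3, had 12.3%, and Cchcr1 and Tcf19, near H2-D1, had 21.9% and 26.5%. Others leaned to BL6, with Vcp, near Fam205c, the highest at 67.6%.

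**Figure D4:**
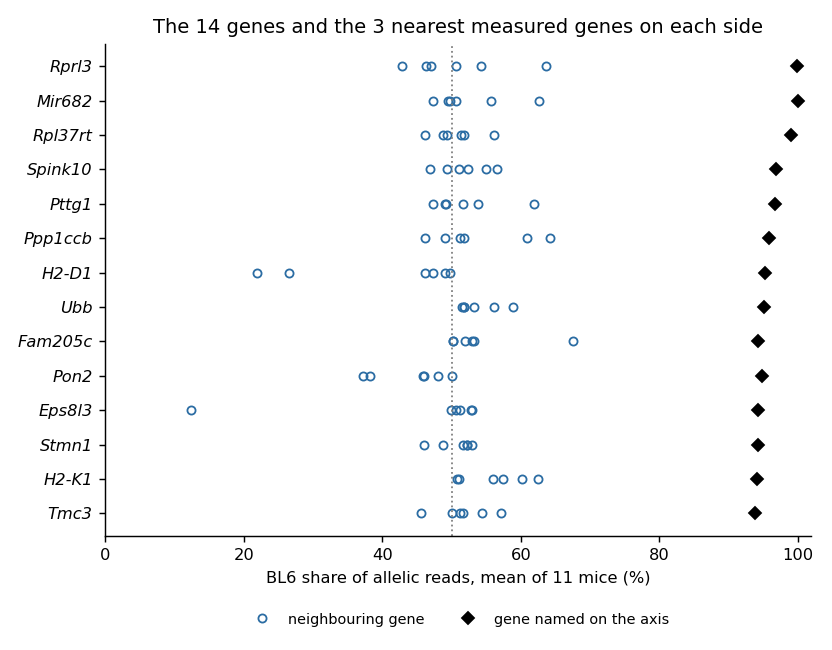
BL6 share of allelic reads in percent, as the mean of 11 mice, for each of the 14 genes (black diamonds) and for the 3 nearest measured genes on each side of it (open circles), with a dotted line at 50%. The diamonds lie above 93%, while no circle exceeds 67.6%. Genes that failed the read minimum or the symbol filter are not drawn.

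A CAST copy that is missing, a CAST copy that gives less RNA and CAST reads that were not placed at the gene cannot be told apart from these counts. The relation of matched length, assigned fraction, overlap or neighbours to the shares was not tested.

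Age was compared next, on total counts, a measure that the choice by share did not use beyond the read minimum. Across all 30568 genes tested with edgeR's quasi-likelihood test, with the mother's strain as a covariate, 104 (0.34%) had a Benjamini-Hochberg adjusted p under 0.05, 70 of them higher in old mice (0.229%). The members included 1, H2-D1, which rose. Its counts were 24.4, 24.1, 23.3, 20.9 and 25.7 CPM in old replicates 1 to 5, and 10.5, 13.9 and 17.3 CPM (lowest, median, highest) in young mice. Every old mouse was above every young mouse, a separation whose share over all genes tested was not counted. The means were 23.7 ± 1.78 CPM (SD, n = 5) and 14.2 ± 2.44 CPM (SD, n = 6), a log2 difference of 0.73 (SE 0.13, adjusted p = 0.0364 by edgeR). The call was lost when any 1 of old replicates 1 to 5 or young replicates 1 to 3 was left out (adjusted p = 0.0741 to 0.119 by edgeR), and without the 3 striatum-rich libraries (log2 0.59, adjusted p = 0.277). In bulk tissue, more cells of a type and more RNA per cell cannot be told apart.

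H2-K1 differed in the same direction but did not pass. Counts were 15.2, 14.2, 12.96, 11.2 and 14.6 CPM in old replicates 1 to 5, and 6.37, 8.05 and 10.7 CPM (lowest, median, highest) in young mice, so these groups did not overlap either. The log2 difference was 0.69 (SE 0.16, adjusted p = 0.134 by edgeR). It passed in 2 of 16 other settings. These were DESeq2 (0.67, adjusted p = 0.0366) and edgeR without young replicate 5 (0.77, adjusted p = 0.0461). Without the 3 striatum-rich libraries it was 0.59 (adjusted p = 0.617 by edgeR). For both genes the reads of the BL6 copy were higher in every old mouse than in any young mouse: 6.91 ± 0.505 against 3.90 ± 0.836 CPM for H2-D1 and 6.17 ± 0.643 against 3.86 ± 0.753 CPM for H2-K1 (SD, n = 5 and 6). CAST reads were few, 0.436 ± 0.188 against 0.159 ± 0.0708 CPM for H2-D1 and 0.439 ± 0.101 against 0.221 ± 0.0813 CPM for H2-K1, and here the age groups overlapped.

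**Figure D5:**
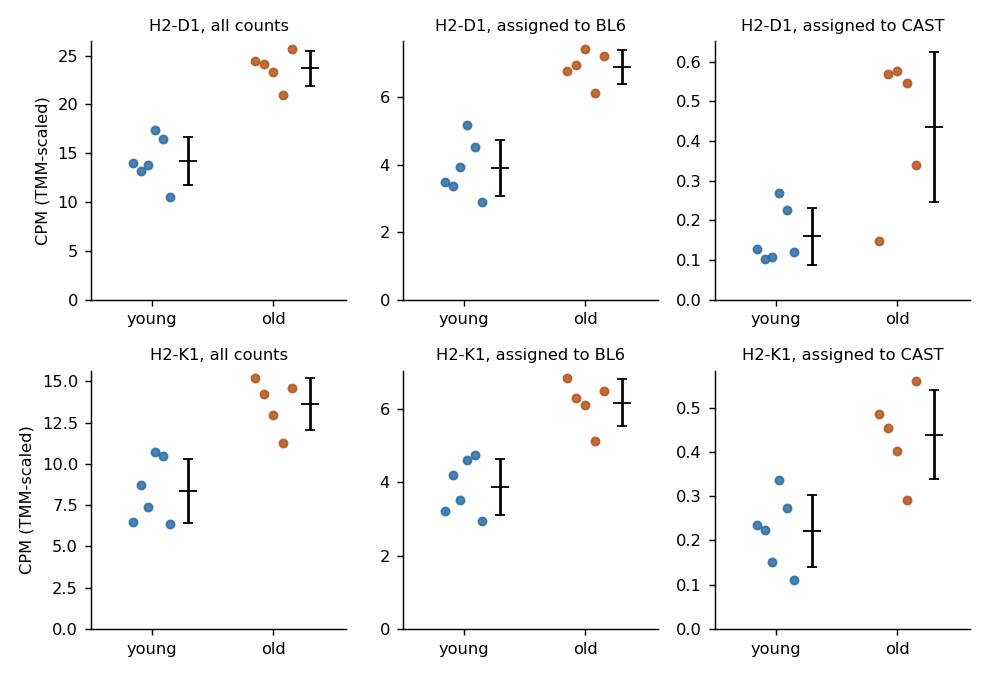
CPM of H2-D1 (top) and H2-K1 (bottom) in 6 young and 5 old mice, from all counts, from reads assigned to BL6 and from reads assigned to CAST, 1 point per mouse, with the mean and SD beside each group. In all counts and in BL6 reads every old mouse lies above every young mouse. CAST reads, at most 89 per mouse for either gene, also had a higher mean in old mice, but the age groups overlap.

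Of the 30 MHC genes tested, 2 were called, both higher in old mice: H2-D1 and the nonclassical class I gene H2-Q7 (log2 1.604, SE 0.26, adjusted p = 0.0338 by edgeR). The list's median log2 difference was 0.66, and 25 of 30 were above 0, against a median of -0.01 over all genes tested. Summed MHC counts were 118 to 136 CPM in old mice and 88.2 to 112 CPM in young mice. Markers of microglia, the brain's resident phagocytes, moved with them (Cx3cr1, P2ry12, Csf1r, Tmem119 and C1qa). All 5 of these markers were higher in old mice at an unadjusted p under 0.05, though none passed the adjustment in edgeR, with summed counts of 186 to 213 CPM in the old group and 107 to 175 CPM in the young. Markers of other cells differed too. All 4 markers of CA1 pyramidal cells were above 0 in log2 difference (median 0.59), 3 of them at an unadjusted p under 0.05, and all 10 striatal markers were below 0 (median -1.43), with no unadjusted p under 0.05. No marker of either list passed the adjustment in edgeR. The part of these cells in the MHC difference was not tested.

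The other 12 members did not pass the age test. Stmn1 had the largest negative value, -0.50 (SE 0.19, adjusted p = 0.355), with an old mean of 128 ± 42.2 CPM and a young mean of 177 ± 37.4 CPM. Ubb stood at 0.25 (SE 0.13, adjusted p = 0.44), on 318 ± 27.4 against 266 ± 46.2 CPM. Ppp1ccb had 0.21 (SE 0.13), and the remaining genes lay between -0.13 (Mir682) and 0.24 (Rprl3). The median over the 14 genes was 0.12 and 12 were above 0. An unadjusted p under 0.05 was reached by 3 members, H2-D1, H2-K1 and Stmn1, and by 12.5% of all genes tested.

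Direction of cross made no called difference among the members. Over all genes, 63 of 30568 (0.206%) were called between mice with a CAST and with a BL6 mother in edgeR. None of the 14 genes was among them, none reached an unadjusted p under 0.05, and DESeq2 also called none. Log2 differences ran from -0.36 (Fam205c) to 0.08 (Tmc3). Fam205c had 5.40 ± 1.41 CPM (SD, n = 5) with a CAST mother and 6.96 ± 0.96 CPM (SD, n = 6) with a BL6 mother.

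The parent of origin was tested on allelic reads, maternal against paternal, in the 24707 autosomal genes whose allelic reads averaged 10 or more per mouse. The rule asks for a BL6 share of at least 90% in both crosses, so no gene read mainly from the mother's or the father's copy could be a member, and nothing is read from the count of members called. In edgeR 216 genes (0.874%) were called and none of the members, and DESeq2 called none of them either. An unadjusted p under 0.05 was found for Stmn1, whose BL6 share was 94.6% ± 0.70 (SD, n = 6) with a BL6 mother and 93.8% ± 0.67 (SD, n = 5) with a CAST mother (log2 maternal over paternal 0.12, adjusted p = 0.187 by edgeR). Pon2 was the other, with 95.4% ± 0.96 and 94.2% ± 1.00 (log2 0.19, adjusted p = 0.748 by edgeR).

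The balance of the alleles was then compared between ages, as the BL6-to-CAST ratio in old against young mice, within the bounds that the rule sets on each share. The rule treats mice of both ages alike, but it uses the same allelic reads, so the values describe these genes and say nothing of the members as a group. Of 24707 genes, 38 (0.154%) were called, 17 of them with a lower ratio in old mice (0.0688%). Among the members 1 was called, Ubb. Its reads from the CAST copy were 1.196, 2.23, 2.39, 2.72 and 1.37 CPM in old replicates 1 to 5, and 0.462, 0.807 and 2.21 CPM (lowest, median, highest) in young mice. Reads from the BL6 copy were 24.98, 30.2, 35.3, 31.6 and 30.7 CPM in old mice, and 16.6, 19.97 and 33.2 CPM in young mice. Young replicate 4 reached the old group's levels, so both sets overlapped. The BL6 share was 94.0% ± 1.55 (SD, n = 5) in old and 96.0% ± 1.48 (SD, n = 6) in young mice, and the log2 ratio was lower by 0.66 in old mice (log2 -0.66, SE 0.13, adjusted p = 0.032 by edgeR). This call rests on the 9.57% of Ubb counts with an allele and was kept in 7 of 15 other settings. It was lost with DESeq2 (adjusted p = 0.167), with a mean of 50 or more reads (0.0615), without the 3 striatum-rich libraries (0.0766), and without any 1 of old replicates 2 and 4 and young replicates 1, 3 and 6 (adjusted p = 0.0703 to 0.269 by edgeR).

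Other members had values that did not pass. The log2 difference was -0.61 (adjusted p = 0.495) for H2-D1, whose old mice spread from 91.8% to 97.9%, -0.26 (adjusted p = 0.157) for Stmn1 and -0.29 for Eps8l3. Fam205c had a positive value, 0.47 (adjusted p = 0.461), with shares of 95.3% ± 0.74 (SD, n = 5) in old and 93.4% ± 1.39 (SD, n = 6) in young mice. An unadjusted p under 0.05 was found in 5 of the 14 genes, and in 7.95% of all genes tested. The rule used these same allelic reads, so nothing is read from this count of members. Mir682 and Rprl3 had too few CAST reads for a ratio to be given.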

How the data were processed

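Total counts, allelic counts and TPM values per gene and mouse were analysed as deposited by the authors for 11 hippocampus libraries of 100-base paired reads. Per the submitters' processing notes, the tools were Trim Galore 0.6.6, HISAT2 2.1.0, SAMtools 1.10 and featureCounts of Subread 2.0.0, on GRCm38. How reads were assigned to an allele, the strand setting and the annotation release are not given in the sources used here. Deposited allelic counts headed i4fb were taken as BL6. The TPM values were used as deposited by the authors, for levels between genes only. All p-values measure the spread between mice, 1 library each. No 2 libraries of an age group were alike (smallest chi-square per gene 45.6).

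Gene positions and types came from GENCODE M21, matched for 55141 of 55401 genes. CPM values are counts scaled to TMM library size. Age and cross were fitted together on total counts with edgeR 4.0.16 in R 4.3.3 (quasi-likelihood, TMM, filterByExpr). Allelic counts were fitted with each mouse as a block, plus the parental origin and the strain of the allele and the change of both with age, in autosomal genes averaging 10 or more reads. P-values were adjusted over all genes tested. SE is the log2 value divided by the root of F. DESeq2 1.42.0, other filters and scalings, and leaving out each mouse were alternatives. The scripts were tested on simulated data. Similarity was found with blastn 2.17.0 between transcripts (alignments of at least 50 bases, at least 95% identical over the whole alignment). It stood in place of a protein comparison, which was not made here. RefSeq held a promoter for 10 of 14 genes and a mature microRNA for 1.

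The members and lists were chosen with earlier results of these data known. All members are named. Per-mouse values were planned for the 10 with most counts, family pairs, called members and the highest shares, and were given for the others too. The gene and relative pairs were picked after their values were seen. Another gene read almost only from CAST is not reported here.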

Additional observations from a re-analysis of the deposited data

Results flagged for a closer look

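Outliers were sought in 55 groups, each of 5 old or 6 young mice, by Dixon's criterion, which chance meets in about 1 of 20 groups, and 4 were found. Rprl3 was high in old replicate 3, at 8.78 CPM against 3.39 to 4.69 CPM in the other old mice. It was also high in young replicate 4, at 8.65 CPM against 2.80 to 4.68 CPM in the other young mice. The BL6 share of Rprl3 in old replicate 1 was 99.81%, from 1 CAST read, against 100% in the other old mice. Eps8l3 stood at 37.7 CPM in young replicate 5, against 24.7 to 28.5 CPM in the other young mice. Ubb had a BL6-to-CAST ratio that differed between ages, with a log2 value of -0.66 in old against young mice (edgeR adjusted p = 0.032). The rule had used the same allelic reads, and the call was kept in 7 of 15 other settings.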

How the results depend on the processing

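The number of genes that passed the rule was 34 at 80%, 3 at 95%, 23 with the reads of all mice together and 41 without the symbol filter, and 14 to 15 when 1 mouse was left out. Every one of the 14 genes passed in the settings with 34, 23 and 41. The number of members called for age was 2 with DESeq2 (H2-D1 and H2-K1), 0 without the 3 striatum-rich libraries (old replicate 3, young replicates 2 and 6) and 0 to 2 when 1 mouse was left out. Over all genes, age calls were 104 in edgeR, 448 with DESeq2, 15 without those 3 libraries and 14 (without old replicate 4) to 244 (without young replicate 5) when 1 mouse was left out. Cross calls were 63 and fell to 30 without those 3 libraries, and ratio-by-age calls were 38, 23 without those 3 libraries and 22 (without old replicate 3 or 4) to 169 (without young replicate 5) when 1 mouse was left out. The number called for BL6-to-CAST ratio by age was 0 with DESeq2, 0 with a mean of at least 50 reads, 0 without those 3 libraries and 0 to 1 when 1 mouse was left out. No cross or parent-of-origin call appeared among the members in any setting run. The log2 values of H2-D1 with age stayed between 0.59 and 0.82, and those of Ubb by allele and age between -0.79 and -0.53, over their settings. The cause of each lost call was not tested. No paired analysis was possible because the labels give the mice no replicate numbers that are shared between groups. Depth limits the CAST side: single-mouse shares carry counting intervals of up to 7.13 points. Matched transcripts numbered 4 at 98% identity and 3 with matches of at least 100 bases, settings chosen after the data were seen. The gene lost at 100 bases was Mir682, whose transcript of 96 bases is shorter than that minimum and could not pass.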
